A study of Mus musculus with 5 samples.

Results

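Axon guidance genes were examined in fibroblasts isolated from mouse lung, the connective tissue cells that make its matrix, after TGF-β1 or vehicle. The genes were chosen by family name, as the protein-coding semaphorins (Sema3 to Sema7), plexins, neuropilins, slits, roundabouts, netrins (Ntn1, Ntn3, Ntn4 and Ntn5), Unc5 receptors, ephrins and Eph receptors, with the cytosolic Dpysl2 to Dpysl5. These rules took 72 of the 55335 genes in the deposited table, and all 72 had a row there. TGF-β1 was given at 5 ng/mL for 24 h to the 3 treated cultures, and 2 cultures received vehicle. They are described as independent biological replicates, but neither the source of each culture (animal or dish) nor strain, age or sex is stated. The p-values therefore rest on the spread among 5 libraries, which may be partly technical.

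Guidance molecules were named for steering growing axons. Some are secreted, and others are bound to the membrane and read by receptors on the neighbouring cell. Secreted class 3 semaphorins bind neuropilins, which signal through plexins, whereas membrane semaphorins mostly bind plexins directly. Slits bind Robo receptors, netrins bind Dcc, neogenin and Unc5 receptors, and ephrins signal to Eph receptor tyrosine kinases on contact. Outside the nervous system, the same families shape blood vessels, branching airways and cell sorting, and many of them act on the actin cytoskeleton and on adhesion.

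Libraries held 34283288 to 43163967 counts, and Pearson correlations of log2 CPM (read counts scaled to library size, with TMM factors) were 0.987 to 0.989 within groups and 0.958 to 0.960 between them. Known TGF-β1 responses were present, with all 6 genes checked higher, among them Skil (log2 fold change 0.91). These 6 were chosen with earlier results of these data known, so they are no independent check. Fibroblast markers were abundant, at a sum of 26277 to 27267 CPM in controls and 33304 to 33573 CPM with TGF-β1. Most of that sum was Col1a1 (means of 10220 CPM in the controls and 16482 CPM with TGF-β1) and Col1a2 (10785 and 11766 CPM). Lum was under 1 CPM in every library. Of the 10 fibroblast markers 4 were higher, with Col1a1 at a log2 fold change of 0.69. The other 6 were lower, with Pdgfra at −2.02, Dcn at −1.90 and S100a4 at −1.82. Neuron and Schwann cell markers summed to 0.750 to 1.52 CPM over the 5 libraries, with Snap25 and Rbfox3 at 0, and endothelial markers to 5.09 to 6.44 CPM. Epithelial Sftpc, Sftpb and Nkx2-1 were at 0, and the epithelial list (82.6 to 91.7 CPM) consisted mostly of Krt8 and Krt18. Mesothelial markers, from the cell layer that covers the lung, summed to 1524 and 1615 CPM in the controls and to 206 to 233 CPM with TGF-β1, and 9 of 9 were lower. Leukocyte markers summed to 2400.1 and 2478 CPM in the controls and to 1457 to 1487 CPM with TGF-β1. Most of that sum was Lyz2, at means of 1994 CPM in the controls and 1137 CPM with TGF-β1. Of 7 leukocyte markers tested, 6 were lower and 1, Ptprc, was higher (log2 fold change 0.29), with Cd3e at 0. The part of these 2 marker lists in the guidance gene differences given here was not tested. In such bulk RNA, fewer cells of a type and less RNA per cell cannot be told apart.

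Of the 72 guidance genes, 63 passed the low-count filter and were tested with edgeR's quasi-likelihood test, with p-values adjusted over all 16380 genes. At an adjusted p under 0.05, 15 were higher with TGF-β1, 28 were lower and 20 did not pass. The higher share, 23.8% of those tested, was close to the 21.3% of all tested genes. The lower share was 44.4%, against 23.2% of all tested genes. In either direction 68.3% passed, against 44.5% of all tested genes. Changes of at least 2-fold that passed numbered 5 higher (7.94%, against 3.19% of all tested genes) and 11 lower (17.5%, against 7.74%). These counts include Epha1, Efna3, Ntn3 and Unc5a, whose exon overlaps with other genes leave their values uncertain. Without them 59 genes remained, of which 14 were higher (23.7%), 25 lower (42.4%) and 10 lower by at least 2-fold (16.9%). The median log2 fold change was −0.20 over the tested guidance genes and 0.00 over all tested genes. Ligands and receptors differed mainly in the share called higher. Among 33 tested ligands, 5 (15.2%) rose and 15 (45.5%) fell, and their median was −0.29. Among 26 tested receptors, 9 (34.6%) rose and 11 (42.3%) fell, and their median was 0.01. The lower shares were thus similar, and both exceeded the 23.2% of all tested genes. At 2-fold or more, 15.2% of ligands and 19.2% of receptors were lower, and 9.09% and 7.69% were higher. The difference between ligands and receptors was not tested. Of the genes tested, 4 (Sema4f, Sema3g, Dpysl4 and Plxnb3) averaged under 10 counts in the controls and passed the filter through the TGF-β1 libraries alone. Sema4f is among the 5 genes counted as higher by at least 2-fold, so that share includes a call resting on few counts. The filter left out 9 genes, which are the receptors Epha5, Epha6, Epha8, Epha10, Ephb1, Robo4 and Unc5d and the ligands Ntn5 and Sema5b. They had at most 9 counts in a library, and 4 of them (Epha6, Epha8, Unc5d and Sema5b) had 0 counts in all 5, where 3 counts correspond to 0.0695 to 0.0875 CPM.

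**Figure D1:**
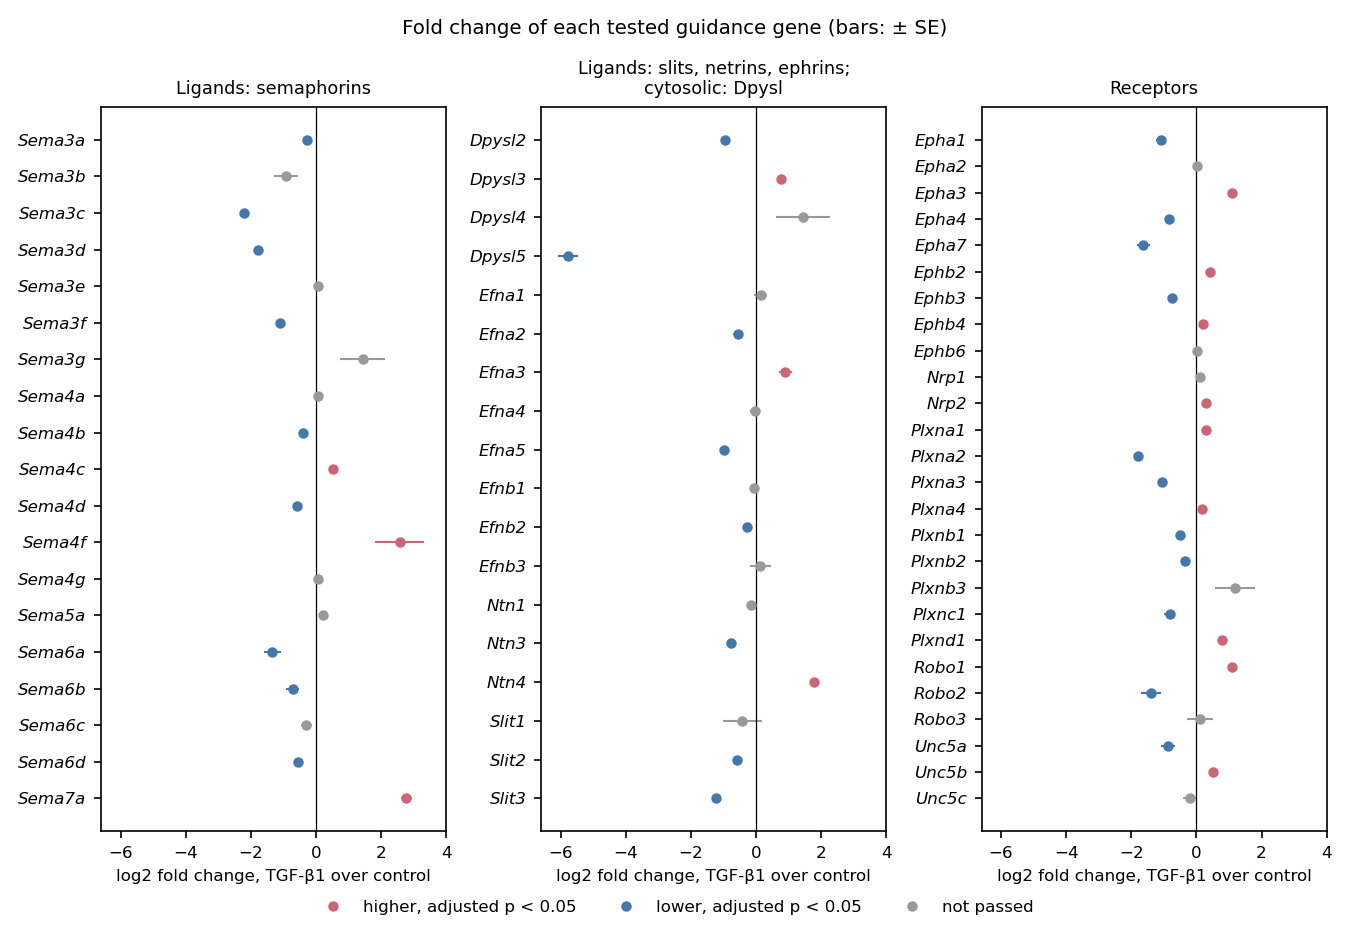
Log2 fold change of TGF-β1 over control (x axis) for each of the 63 tested guidance genes (y axis), with bars of ± 1 SE, in red for 15 genes higher, blue for 28 lower and grey for 20 not passed. Dpysl5 lies farthest to the left at −5.78 and Sema7a farthest to the right at 2.77.

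The region around the transcription start is printed for the 2 largest increases and the 2 largest decreases among genes changed at least 2-fold at 1 CPM or more. Each stretch of 300 bases runs from 250 before to 50 after the start site given by RefSeq in GRCm38.p6. Capitals mark AGAC and its reverse complement GTCT, the 4-letter core bound by SMAD proteins, which carry the TGF-β signal to DNA.
Sema7a: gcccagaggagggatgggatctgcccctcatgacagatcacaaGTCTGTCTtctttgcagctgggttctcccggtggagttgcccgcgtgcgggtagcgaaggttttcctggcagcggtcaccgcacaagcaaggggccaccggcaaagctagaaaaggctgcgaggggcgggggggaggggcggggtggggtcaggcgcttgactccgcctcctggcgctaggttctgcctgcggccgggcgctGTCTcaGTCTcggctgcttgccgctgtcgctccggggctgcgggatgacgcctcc
Ntn4: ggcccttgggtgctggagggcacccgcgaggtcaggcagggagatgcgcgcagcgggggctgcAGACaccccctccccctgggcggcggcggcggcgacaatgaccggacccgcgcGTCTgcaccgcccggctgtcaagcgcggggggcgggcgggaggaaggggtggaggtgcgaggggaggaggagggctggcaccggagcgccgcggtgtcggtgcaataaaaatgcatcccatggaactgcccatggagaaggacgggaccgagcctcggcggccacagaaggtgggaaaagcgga
Dpysl5: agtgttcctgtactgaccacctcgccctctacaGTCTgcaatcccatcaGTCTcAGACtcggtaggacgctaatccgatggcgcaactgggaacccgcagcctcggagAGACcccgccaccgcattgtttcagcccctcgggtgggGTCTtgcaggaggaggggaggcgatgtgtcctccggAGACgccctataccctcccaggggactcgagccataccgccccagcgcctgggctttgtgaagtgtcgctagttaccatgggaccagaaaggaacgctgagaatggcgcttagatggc
Sema3c: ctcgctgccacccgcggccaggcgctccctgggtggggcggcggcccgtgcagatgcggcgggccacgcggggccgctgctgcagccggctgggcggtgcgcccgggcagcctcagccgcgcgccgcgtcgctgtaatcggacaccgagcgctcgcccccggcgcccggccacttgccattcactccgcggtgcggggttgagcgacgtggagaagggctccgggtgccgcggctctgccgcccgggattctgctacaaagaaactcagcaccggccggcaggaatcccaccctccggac
All are on the plus strand, Sema7a at chr9:57939862-57940161, Ntn4 at chr10:93640799-93641098, Dpysl5 at chr5:30711314-30711613 and Sema3c at chr5:17574566-17574865. The RefSeq start equals the first base of the GENCODE M21 gene for Sema7a and Dpysl5, and lies 368 bases downstream of it for Ntn4 and 535 bases downstream for Sema3c. The core occurred 4 times in Sema7a, 2 times in Ntn4, 6 times in Dpysl5 and 0 times in Sema3c. It is a common word, found on either strand in 88.0% of 32851 promoters of this length. The longer CAGACA, searched on both strands and containing the core, was in a promoter of 23.6% of all genes and, of these 4, in Ntn4 alone. The palindrome GGCGCC, a GC-rich SMAD site, was in a promoter of 13.4% of all genes and, of these 4, in Sema3c alone. Promoters matched 60 of the 72 genes. CAGACA was in 3 of 12 matched genes that were higher, 8 of 25 that were lower and 4 of 15 that did not pass. GGCGCC was in 2, 9 and 4 of the same genes. The 4 promoters were CpG-rich, with 23, 31, 19 and 42 CG pairs in the order printed, against a median of 7 over all promoters.

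Of 7 secreted class 3 semaphorins tested, 4 were lower (57.1%, against 23.2% of all tested genes), 0 were higher and 3 did not pass. Sema3c, a neuropilin ligand known from heart outflow tract development (ENSMUSG00000028780 on chromosome 5, 17574281 to 17730268 of GRCm38), stood at 210.0 and 204 CPM in the controls and 45.0, 47.2 and 43.1 CPM with TGF-β1. All treated libraries were far below both controls, and the fitted decrease was 4.58-fold (log2 fold change −2.20, SE 0.047, adjusted p = 1.37e-09). Sema3d, which repels migrating endothelial cells, had 73.0 and 71.1 CPM in the controls and 19.5, 22.3 and 21.2 CPM with TGF-β1 (log2 fold change −1.78, SE 0.062, adjusted p = 3.09e-08). Sema3f, the main ligand of neuropilin-2, had 200.2 and 196 CPM in the controls and 97.5, 88.2 and 89.4 CPM with TGF-β1 (log2 fold change −1.11, SE 0.047, adjusted p = 1.26e-07). Sema3d and Sema3f likewise showed no overlap between the groups. Sema3a, the classic growth cone collapsing factor and a neuropilin-1 ligand, fell less, from 74.8 ± 1.39 to 61.9 ± 4.58 CPM (mean ± SD, n = 2 and 3; log2 fold change −0.27, adjusted p = 0.00635), and its call was lost without control 2 (adjusted p = 0.0622). Sema3e, which binds plexin-D1 without a neuropilin, had 21.7 and 24.8 CPM against 22.8, 25.8 and 24.0 CPM, and the groups overlapped (log2 fold change 0.06, SE 0.085). Sema3b and Sema3g, at means of at most 2.24 and 0.392 CPM, did not pass either.

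The 4 class 3 genes on chromosome 5 lie in the same orientation but did not share a response. Sema3d (12383385 to 12588948), Sema3a (13125414 to 13602565) and Sema3e (14025276 to 14256689) follow each other with gaps of 536 and 423 kb, and their log2 fold changes were −1.78, −0.27 and 0.06. Sema3c starts 5191 kb from the start of Sema3d. On chromosome 9, Sema3b and Sema3f are 72.3 kb apart, and their log2 fold changes were −0.92 (adjusted p = 0.0679, not passed) and −1.11.

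Membrane-bound semaphorins went both ways. Sema7a, a GPI-anchored semaphorin that binds plexin-C1 and integrins (ENSMUSG00000038264 on chromosome 9, 57940112 to 57962865), had 1.01 and 1.02 CPM in the controls and 7.36, 6.45 and 7.08 CPM with TGF-β1. The increase of 6.83-fold was the largest of any guidance gene at 1 CPM or more (log2 fold change 2.77, SE 0.171, adjusted p = 1.42e-06). Its receptor plexin-C1 moved the other way, as given with the plexins. Class 4 semaphorins are transmembrane ligands. The 6 tested comprised 2 higher and 2 lower (33.3% each, against 21.3% and 23.2% of all tested genes), and 2 that did not pass. Sema4b, the most abundant of them per kb of exon, had 75.9 and 72.1 CPM in the controls and 54.5, 55.3 and 60.2 CPM with TGF-β1 (log2 fold change −0.38, SE 0.056). Sema4c, a plexin-B2 ligand, rose from 32.8 ± 0.755 to 47.1 ± 2.94 CPM (log2 fold change 0.52). Sema4d, a plexin-B1 ligand also made by leukocytes, went from a mean of 20.7 to one of 13.8 CPM (log2 fold change −0.59). In the TGF-β1 libraries the leukocyte sum, mostly Lyz2, was lower, while the leukocyte marker Ptprc was higher. The part of leukocytes in the Sema4d difference was not tested. Sema4f passed with 0 and 0.238 CPM in the controls against 0.870, 0.666 and 0.750 CPM (log2 fold change 2.57, adjusted p = 0.0215). That call rests on few counts: leaving out control 1 gave a log2 fold change of 1.67 and an adjusted p of 0.0547, leaving out control 2 left a control at 0 counts and thus no interpretable fold, and testing unfiltered counts gave 0.0559.

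Class 6 semaphorins, transmembrane ligands of class A plexins, were lower in 3 of 4 genes tested (75%, against 23.2% of all tested genes). Sema6d, the most abundant of them per kb, had 26.2 and 27.8 CPM in the controls and 17.8, 18.4 and 18.9 CPM with TGF-β1 (log2 fold change −0.56, SE 0.070). Sema6a had 2.25 and 2.52 CPM in the controls and 0.796, 1.14 and 0.879 CPM with TGF-β1 (log2 fold change −1.34, SE 0.253, adjusted p = 0.00211). For both genes the groups were separate. Sema6b fell with TGF-β1, 3.13 ± 0.579 CPM against 1.92 ± 0.203 CPM (log2 fold change −0.71), a call lost without control 2, TGF-β1 replicate 1 or TGF-β1 replicate 2 (adjusted p = 0.173, 0.0548 and 0.0590). Sema5a, the class 5 gene tested, had 18.3 and 16.3 CPM against 19.1, 19.1 and 22.6 CPM and did not pass (log2 fold change 0.23, adjusted p = 0.0922).

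**Figure D2:**
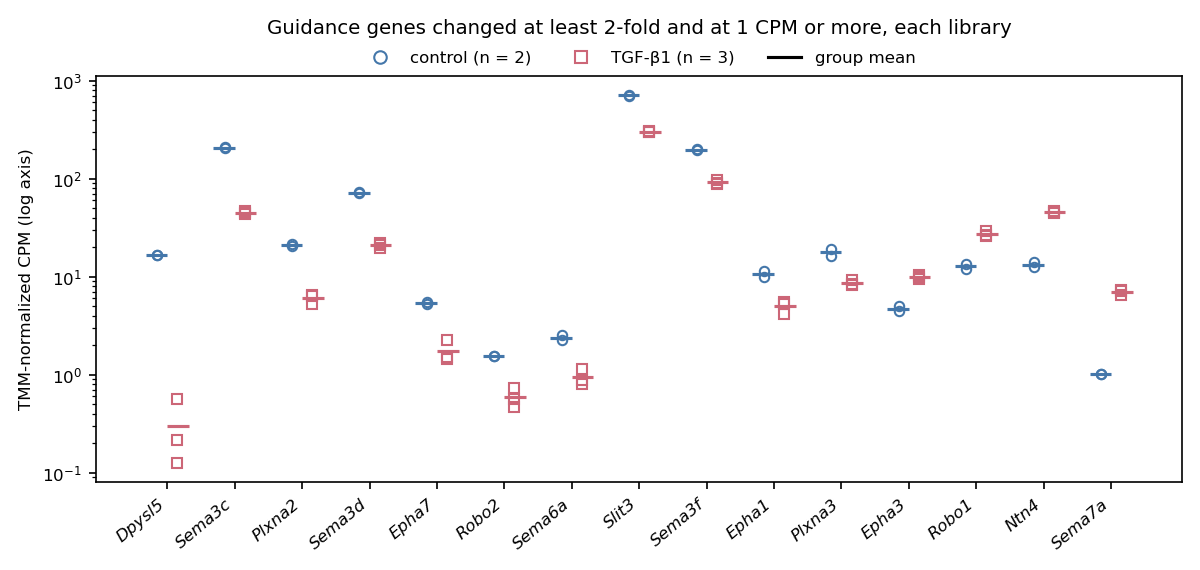
TMM-normalized CPM (y axis, log scale) in each control library (blue circles, n = 2) and TGF-β1 library (red squares, n = 3) for the 15 guidance genes (x axis) changed at least 2-fold at 1 CPM or more, with bars at group means. In 11 genes the red points lie below both blue points, and in Epha3, Robo1, Ntn4 and Sema7a they lie above. The genes were selected by their change, so this separation is no independent result.

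Plexins, the signalling receptors of semaphorins, passed in 8 of 9 genes (88.9%, against 44.5% of all tested genes), 3 higher and 5 lower. Plxna1, a partner of neuropilins for class 3 ligands, rose from 344 ± 11.2 to 424 ± 8.82 CPM (log2 fold change 0.30). Its paralog Plxna2 (ENSMUSG00000026640 on chromosome 1, 194618218 to 194816869) moved the other way, with 21.7 and 20.4 CPM in the controls and 6.51, 5.26 and 6.41 CPM with TGF-β1 (log2 fold change −1.80, SE 0.113, adjusted p = 1.58e-06). Plxna3 had 16.1 and 19.3 CPM in the controls and 8.23, 8.33 and 9.20 CPM with TGF-β1 (log2 fold change −1.04, SE 0.109). Class A receptors thus differed in direction, although Plxna1 was the most abundant of them per kb in both groups. Plxna4 was higher by a log2 fold change of 0.17, a call lost with library totals alone and without control 2 (adjusted p = 0.265 and 0.161). Plxnd1, the vascular plexin that binds Sema3e, had 39.8 and 41.9 CPM in the controls and 71.6, 69.2 and 69.8 CPM with TGF-β1 (log2 fold change 0.78, SE 0.050, adjusted p = 1.75e-06).

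Plxnb2, a receptor of class 4 semaphorins, was the most abundant plexin per kb, with 703 and 688 CPM in the controls and 545, 543 and 541 CPM with TGF-β1 (log2 fold change −0.36, SE 0.024, adjusted p = 2.26e-06). Plxnb1, the Sema4d receptor, fell with TGF-β1, 65.7 ± 5.23 CPM against 46.6 ± 2.06 CPM (log2 fold change −0.50). Plxnc1, the receptor of Sema7a, fell with TGF-β1, 9.08 ± 0.572 CPM against 5.13 ± 0.893 CPM (log2 fold change −0.83, SE 0.158, adjusted p = 0.0023). Plxnc1 is also known from leukocytes, for which 6 of 7 tested markers were lower with TGF-β1 and Ptprc was higher (log2 fold change 0.29). The part of leukocytes in the Plxnc1 difference was not tested. Of the neuropilins, Nrp2 had 244 and 242 CPM in the controls and 293, 290.3 and 306 CPM with TGF-β1 (log2 fold change 0.29, SE 0.033, adjusted p = 9.75e-05). Nrp1, which also binds VEGF, had 95.0 and 89.5 CPM against 96.7, 98.0 and 105 CPM and did not pass (log2 fold change 0.12, SE 0.051, adjusted p = 0.0946). The class 3 ligands Sema3c, Sema3d and Sema3f were therefore lower in libraries where the neuropilin genes were higher (Nrp2) or did not pass (Nrp1).

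Slits were abundant in these cells, and their main members fell. Slit3, a secreted repellent (ENSMUSG00000056427 on chromosome 11, 35121224 to 35708507), was the guidance gene with the highest CPM in the controls, at 719.7 and 696 CPM, and stood at 299, 296 and 309.7 CPM with TGF-β1. The decrease was 2.34-fold (log2 fold change −1.23, SE 0.029, adjusted p = 3.05e-09). Slit2, which is known to repel leukocytes as well as axons, fell with TGF-β1, 314 ± 18.4 CPM against 208 ± 7.23 CPM (log2 fold change −0.59, SE 0.043), and Slit1 was under 0.5 CPM in every library. Robo receptors were scarcer. Robo1 had 13.6 and 12.1 CPM in the controls and 26.4, 26.1 and 29.4 CPM with TGF-β1 (log2 fold change 1.09, SE 0.090, adjusted p = 1.01e-05). Robo2, its neighbour 846 kb away on chromosome 16, had 1.54 and 1.57 CPM in the controls and 0.472, 0.738 and 0.569 CPM with TGF-β1 (log2 fold change −1.39, SE 0.304, adjusted p = 0.0049). The neighbours thus moved apart, while their ligands fell. Robo3 did not pass, and Robo4, the roundabout of blood vessel endothelium, had 0 to 9 counts in a library.

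Netrins were led by Ntn4, a netrin that binds laminins in basement membranes (ENSMUSG00000020019 on chromosome 10, 93640681 to 93747207). It had 12.5 and 14.1 CPM in the controls and 45.0, 45.6 and 46.4 CPM with TGF-β1, an increase of 3.43-fold (log2 fold change 1.78, SE 0.069, adjusted p = 6.59e-08). Ntn1, the founding axon attractant, had 12.1 ± 0.813 and 10.8 ± 0.458 CPM and did not pass (log2 fold change −0.17, adjusted p = 0.193). Ntn3 was lower, at 12.2 ± 0.0286 against 7.10 ± 0.685 CPM (log2 fold change −0.77), but 89 bases of its exons overlap Tbc1d24 on the same strand, a gene at 2.17 times its CPM that was also lower (log2 fold change −0.52), so the value is uncertain. Among the receptors, Unc5b, a netrin receptor of vessels and many other cells (ENSMUSG00000020099 on chromosome 10, 60762593 to 60831581), had 466 and 469 CPM in the controls and 681, 673 and 663 CPM with TGF-β1. It was 1.44-fold higher (log2 fold change 0.52, SE 0.025, adjusted p = 2.32e-07). Unc5a was lower (log2 fold change −0.87, adjusted p = 0.0107), with an exon overlap with Hk3 on the opposite strand that leaves it uncertain and no call without control 1 (adjusted p = 0.0879). Unc5c, at 2.84 ± 0.485 and 2.49 ± 0.367 CPM, did not pass.

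Ephrins changed little at the transmembrane ephrin-B genes and more at Efna5. Efna5, a GPI-anchored ephrin that binds EphA receptors (ENSMUSG00000048915 on chromosome 17, 62604184 to 62881317), had 72.0 and 64.7 CPM in the controls and 32.1, 35.8 and 34.8 CPM with TGF-β1. The groups were well apart, and the decrease was 1.99-fold (SE 0.066 on the log2 scale, adjusted p = 2.36e-06), just short of the 2-fold mark. Efna3 was higher (2.44 ± 0.597 to 4.51 ± 0.363 CPM, log2 fold change 0.89), with an antisense overlap (Gm15998) at 0.102 of its own level that leaves it uncertain. Its neighbours Efna1 and Efna4, 32.8 and 10.4 kb away on chromosome 3, did not pass (log2 fold changes 0.15 and −0.04). Efna2 was lower by 0.56 on the log2 scale, a call lost without control 2 (adjusted p = 0.153). Efnb2, the artery-marking ephrin, fell with TGF-β1, 187 ± 1.23 CPM against 153 ± 5.08 CPM (log2 fold change −0.29, SE 0.038). Efnb1, the most abundant ephrin per kb, had 112 and 107 CPM against 109, 108 and 96.5 CPM, and the groups overlapped (log2 fold change −0.07, SE 0.057, adjusted p = 0.395).

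Of 5 tested EphA receptors, 1 rose (20%, against 21.3% of all tested genes), 3 fell (60%, against 23.2%) and 1 did not pass. Epha2, the most abundant of them per kb, had 162 and 162 CPM against 172, 168 and 148 CPM and did not pass (log2 fold change 0.01, SE 0.059), with treated libraries on both sides of the controls. Epha3, a receptor of Efna5, had 4.97 and 4.42 CPM in the controls and 9.84, 10.4 and 9.57 CPM with TGF-β1 (log2 fold change 1.09, SE 0.122, adjusted p = 8.32e-05). Epha7, which also binds Efna5, had 5.28 and 5.47 CPM in the controls and 1.44, 2.24 and 1.53 CPM with TGF-β1 (log2 fold change −1.63, SE 0.212, adjusted p = 0.000218). Epha4, which binds ephrins of both classes, fell with TGF-β1, 17.3 ± 0.620 CPM against 9.75 ± 0.537 CPM (log2 fold change −0.83). Epha1 had 9.94 and 11.3 CPM in the controls and 5.30, 5.55 and 4.14 CPM with TGF-β1 (log2 fold change −1.09, SE 0.149). It is uncertain, because 236 bases of its exons overlap Zyx on the opposite strand, a gene at 135 times its CPM that did not pass (log2 fold change 0.07).

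Of 4 tested EphB receptors, 2 rose (50%, against 21.3% of all tested genes), 1 fell (25%, against 23.2%) and 1 did not pass. Ephb4, the venous receptor of Efnb2, was the most abundant EphB gene per kb and had 71.3 and 70.6 CPM in the controls and 83.5, 80.3 and 80.5 CPM with TGF-β1 (log2 fold change 0.20, SE 0.044, adjusted p = 0.00492). With library totals alone its call was lost (adjusted p = 0.0944). Ephb2 was higher, at 90.7 ± 4.23 CPM in the controls and 120.5 ± 2.54 CPM with TGF-β1 (log2 fold change 0.41). By contrast, Ephb3 fell with TGF-β1, 74.5 ± 2.82 CPM against 43.9 ± 3.72 CPM (log2 fold change −0.76, SE 0.070, adjusted p = 2.11e-05). Ephb6, a receptor whose kinase domain is inactive, did not pass.

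Dpysl genes encode the collapsin response mediator proteins, cytosolic partners of tubulin that act downstream of Sema3a in neurons. Dpysl5 (ENSMUSG00000029168 on chromosome 5, 30711564 to 30799375) showed the largest fold change of all guidance genes. It had 16.7 and 16.6 CPM in the controls and 0.124, 0.214 and 0.569 CPM with TGF-β1 (log2 fold change −5.78, SE 0.314, adjusted p = 5.92e-07), a 55.1-fold decrease. The size of the decrease depends on TGF-β1 replicate 3, without which the log2 fold change was −6.58. It was also −6.58 with the replicate number as a block, where that library has no control of its number. The treated libraries differed among themselves by more than the controls did, at 5, 9 and 22 counts. Dpysl2 fell with TGF-β1, 42.0 ± 2.42 CPM against 21.7 ± 2.60 CPM (log2 fold change −0.95, SE 0.095). Dpysl3, the most abundant of the 4, had 253 and 246 CPM in the controls and 408, 423 and 429 CPM with TGF-β1 (log2 fold change 0.75, SE 0.032, adjusted p = 1.29e-07). Dpysl4 stayed under 0.6 CPM in every library and did not pass.

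Levels of different genes were compared as CPM per kb of exon, over all annotated exons of a gene, which understates genes with long or many alternative exons. On that scale Slit3, Plxnb2 and Unc5b led the controls at 117, 90.1 and 74.7 CPM per kb. With TGF-β1 the order was Unc5b, Plxnb2, Dpysl3 and Slit3, at 107, 70.3, 63.6 and 49.8 CPM per kb. Summed over a family, class 3 semaphorins went from 83.8 ± 1.07 to 33.8 ± 0.834 CPM per kb, and slits from 129 ± 3.51 to 58.0 ± 1.43 CPM per kb. Netrins, with the uncertain Ntn3 included, went from 7.87 ± 0.428 to 15.3 ± 0.0942 CPM per kb. Unc5 receptors went from 75.9 ± 0.302 to 108 ± 1.58 CPM per kb, and Robo receptors from 1.01 ± 0.121 to 1.81 ± 0.0772 CPM per kb. The sum over all 35 ligands was 343 ± 7.23 CPM per kb in the controls and 214 ± 0.982 CPM per kb with TGF-β1. Over the 33 receptors it was 334 ± 3.91 and 359 ± 5.66 CPM per kb. These sums were not tested. With library totals alone the log2 ratio of the receptor sum was 0.01, against 0.11 with TMM, and that of the ligand sum was −0.78, against −0.68.

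**Figure D3:**
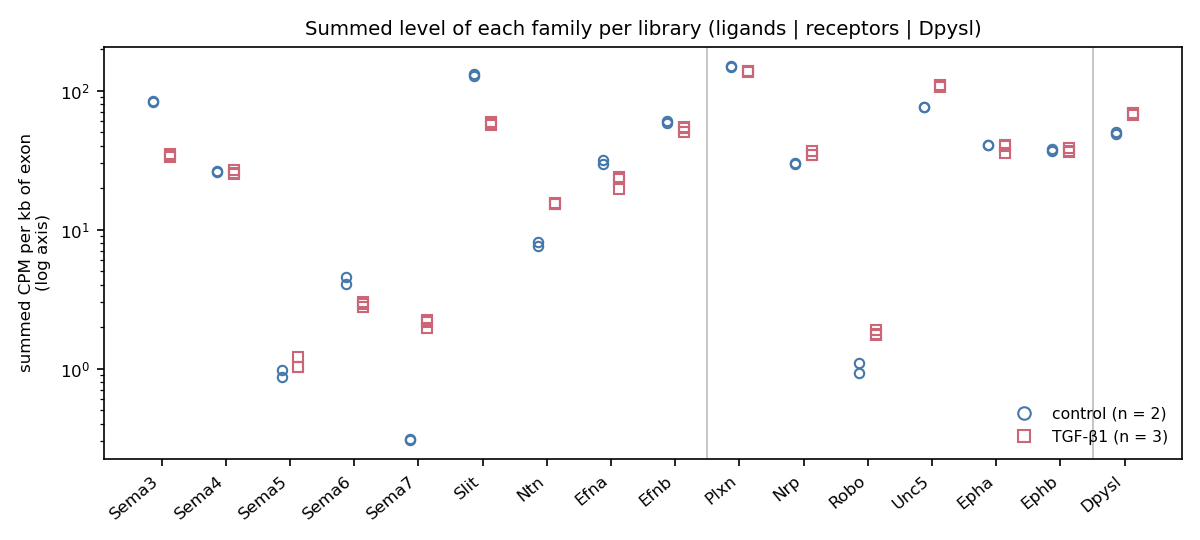
Summed CPM per kb of exon (y axis, log scale) for each family (x axis; ligands, receptors and Dpysl separated by grey lines) in every control (blue circles) and TGF-β1 library (red squares). Class 3 semaphorins and slits lie lower with TGF-β1, netrins, Sema7, Robo and Unc5 lie higher, and Sema4, Epha and Ephb overlap between the groups.

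The make-up of several families shifted with the single genes. Sema3c made up 34.5% ± 0.325 (SD) of the class 3 sum in the controls and 18.7% ± 0.876 with TGF-β1, while Sema3a went from 6.43% ± 0.202 to 13.2% ± 0.916 although its own CPM fell. Ntn4 went from 45.1% ± 1.27 to 79.7% ± 1.28 of the netrin sum. Ntn3, whose value is uncertain for its exon overlap, held 30.3% of that sum in the controls and 9.07% with TGF-β1. Sema4c went from 27.1% ± 0.998 to 39.7% ± 1.11 of the class 4 sum, and Sema4b from 49.8% ± 1.11 to 38.9% ± 0.633. Among plexins, Plxnb2 went from 60.5% ± 0.218 to 51.0% ± 0.259. Ephb3 went from 30.1% ± 0.427 to 17.7% ± 1.11 of the EphB sum, and Dpysl3 from 76.6% ± 0.440 to 92.8% ± 0.848 of the Dpysl sum. These shares do not depend on the scaling between libraries.

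**Figure D4:**
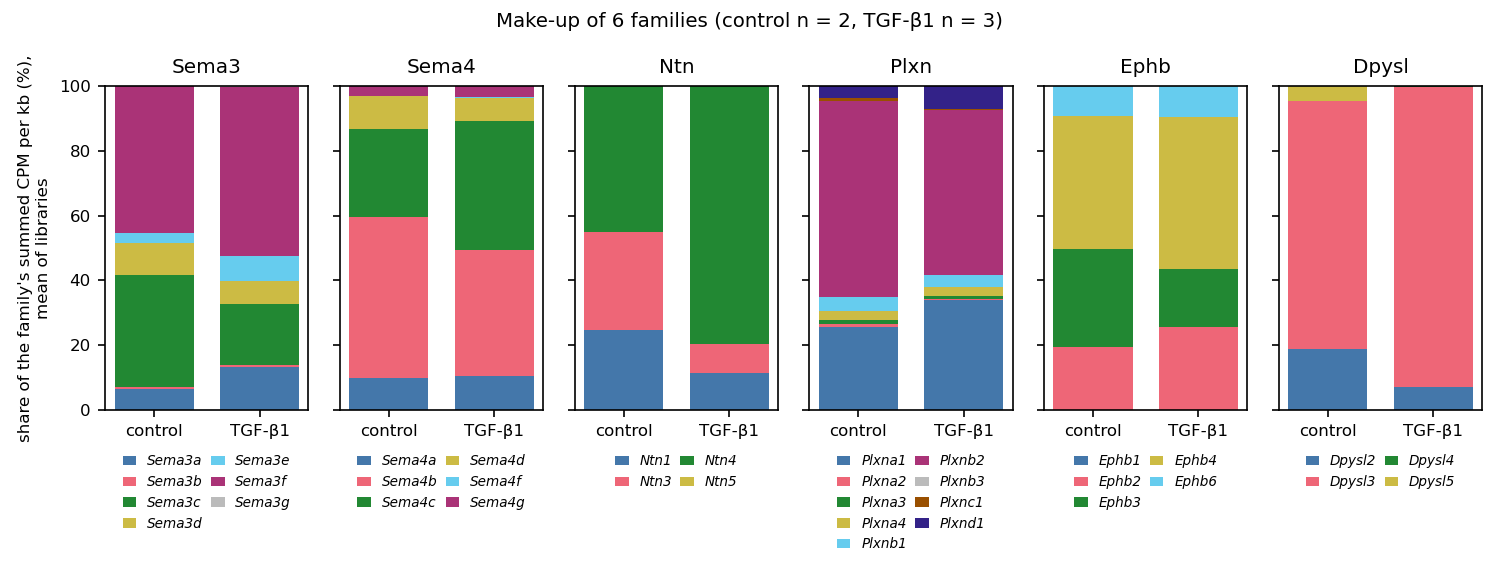
Share of each gene in its family's summed CPM per kb (y axis, %) as the mean over control (n = 2) and TGF-β1 (n = 3) libraries, for 6 families. Ntn4 and Dpysl3 take up most of their families with TGF-β1, at 79.7% and 92.8%, and Sema3c shrinks from 34.5% to 18.7%. The netrin shares include Ntn3, whose value is uncertain.

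Other genes of guidance signalling were taken from a list of 79 co-receptors, further cues and intracellular transducers. The 69 tested comprised 19 higher (27.5%, against 21.3% of all tested genes), 27 lower (39.1%, against 23.2%) and 23 that did not pass, with a median log2 fold change of −0.09; with library totals alone 10 were higher and 36 lower. Among co-receptors and further cues, Met, the HGF receptor that partners plexin-B receptors, had 75.4 and 72.1 CPM in the controls and 16.0, 18.9 and 15.4 CPM with TGF-β1 (log2 fold change −2.13). The adhesion molecule L1cam, a Sema3a co-receptor in neurons, fell with TGF-β1, 3.92 CPM against 0.672 CPM (log2 fold change −2.54), Lrrc4, which binds a netrin-G protein, was at 2.08 against 0.362 CPM (−2.51), and Flrt1, of the Unc5-binding Flrt proteins, at 1.39 against 0.525 CPM (−1.39). Draxin, a netrin-binding repellent, had 1.80 and 2.38 CPM in the controls and 0, 0 and 0.362 CPM with TGF-β1 (log2 fold change −4.12). The netrin receptor Dcc had 0 counts in every library, and Neo1, encoding neogenin, fell with TGF-β1, 181.5 CPM against 118 CPM (log2 fold change −0.62). The netrin receptor genes at more than 10 CPM were thus Unc5b, which was higher, and Neo1, which was lower.

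Of 48 transducers tested, 2 were higher (4.17%) and 4 lower (8.33%) at 2-fold or more, shares near the 3.19% and 7.74% of all tested genes. Ablim1, an actin-binding LIM protein, had 28.8 and 28.7 CPM in the controls and 3.85, 3.52 and 4.40 CPM with TGF-β1 (log2 fold change −2.87), and its relative Ablim3 fell from 1.22 to 0.300 CPM (−2.02). The adaptor Sh2d3c was lower, at 2.42 against 1.16 CPM (log2 fold change −1.06). Fyn, a kinase used by plexin-A2 and Eph receptors, rose from 44.5 to 95.4 CPM, and Enah, an actin regulator downstream of Robo and netrin receptors, rose from 102.7 to 215.7 CPM (log2 fold change 1.07). Srgap1, a GTPase-activating protein that binds Robo1, rose from 10.8 to 20.2 CPM (log2 fold change 0.90).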

How the data were processed

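RNAiso Plus was used to isolate RNA for strand-specific polyA libraries, per the labels' protocols. The authors deposited whole-number counts per gene for 5 libraries. Tools named in the submitters' processing notes are STAR 2.5.3a, StringTie 1.3.1c, with the mm10 build; how reads were counted, with which strand setting and multi-mapping rule, is not given in the sources used here. Columns were assigned by sample title. Gene IDs were matched to GENCODE M21 (GRCm38), which named 55154 of 55335. Counts were filtered with filterByExpr, scaled with TMM and fitted for all 16380 genes kept with edgeR 4.0.16's quasi-likelihood F test on group (two-sided; Benjamini-Hochberg adjusted over these genes; threshold 0.05; R 4.3.3). SE is the log2 fold change over the square root of F. CPM values are TMM-normalized. Exon overlaps with a gene at over 0.1 of a member's CPM are called uncertain. Members and lists were chosen with earlier results of these data known. Values in every library are given for guidance genes that passed at 2-fold or more and 1 CPM or more in the higher group, and for the most abundant of each family per kb. Other pathway genes past those thresholds are named, some with group means alone; Srgap1 and Neo1 were named after their values were seen. Some genes past the thresholds are not reported here. Alternatives were other scalings, other filters, DESeq2 1.42.0, limma-voom (limma 3.58.1), a replicate block and leaving out each library. Log2 CPM for correlations used a prior count of 2.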

Additional observations from a re-analysis of the deposited data

How the results depend on the processing

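The counts of guidance genes ranged over the 13 alternatives from 13 to 15 higher and from 25 to 30 lower. All 15 genes changed at least 2-fold at 1 CPM or more kept direction and call in every alternative in which they were tested, and 36 of the 43 called genes did so overall. Scaling by library totals alone shifted the median log2 fold change of all genes to −0.10. It gave 13 guidance genes higher and 30 lower, 10 other pathway genes higher, 2325 of all genes higher and a guidance median of −0.30. That median was −0.29 over genes above 1 CPM in at least 2 libraries and −0.24 with the replicate block, and it ranged from −0.28 to −0.17 when 1 library was left out. Leaving out a control leaves 1 control, whose spread is taken from the TGF-β1 group. Epha2, which did not pass, turned sign with upper-quartile scaling (−0.00061) and library totals (−0.092), and leaving out a library gave −0.028 to 0.071. Efnb1 passed with library totals (−0.16, adjusted p = 0.0404). Whether the replicate numbers in the titles pair samples is not stated. Deviations from the group mean correlated at 0.0159 and 0.0161 between same-numbered libraries. With 2 controls these deviations mirror each other, so the correlations cannot settle the pairing. With the number as a block the guidance genes gave the same counts, 15 higher and 28 lower. Family sums per kb were also recomputed under other scalings and left-out libraries, chosen after seeing the data. Genes under about 1 CPM rest on some 34 counts or fewer in the shallowest library, which limits Sema4f, Sema3g, Dpysl4, Plxnb3, Robo3 and Slit1. Few counts also underlie the TGF-β1 levels of Robo2 (19, 31 and 22), Sema6a (32, 48 and 34) and Dpysl5 (5, 9 and 22), which limits their fold sizes. The causes of these shifts were not tested.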
